A study of Mus musculus with 4 samples.

Results

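The voltage-gated sodium and calcium channel genes of the mouse were followed through the cell types of the young cerebellum. The members were all gene symbols that start with Scn and a digit, or with Cacna, Cacnb or Cacng, and have at least 50 unique molecular identifiers (UMIs, each standing for 1 captured RNA molecule) over the 4 libraries. Of 40 matching symbols, 34 met this, of 32285 genes in the matrices and 19925 with as many UMIs. The member nearest the minimum was Cacng1 with 105 UMIs, and Scn11a with 44 UMIs fell just below it. Cacng6, Scn4a, Scn4b and Scn10a, with 16 to 27 UMIs each, were not members either. The most abundant member was Cacna2d1 with 434649 UMIs, followed by Cacna1c with 117077 and Cacna1e with 76944. The sodium channel pore genes Scn1a, Scn2a, Scn3a, Scn7a and Scn9a all lie on chromosome 2 (GRCm38), Scn1a at chr2:66270778-66440840 and Scn2a at chr2:65620771-65767447. Cacna2d3 lies at chr14:28904943-29721864. These sums are not corrected for gene length, so each level below is compared within 1 gene and not between genes.

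Voltage-gated sodium and calcium channels are membrane proteins that open when a cell depolarises, and they set how neurons fire, how calcium enters and how transmitter is released. A sodium channel has a pore-forming alpha subunit (Scn genes ending in a) and small beta subunits (Scn genes ending in b). A high-voltage calcium channel has an alpha1 pore subunit (Cacna1 genes), an alpha2-delta subunit (Cacna2d genes) that promotes its delivery to the surface, and a cytoplasmic beta subunit (Cacnb genes), whereas the T-type pores Cacna1g, Cacna1h and Cacna1i open at lower voltage. The Cacng genes encode small tetraspan proteins, of which several, the TARPs, act mainly as partners of AMPA-type glutamate receptors; Cacng2 (stargazin) is the one that cerebellar granule neurons are known to need. Granule neurons are small glutamatergic neurons that are born after birth from dividing progenitors in the outer cerebellar layer.

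Whole cerebella, with the meninges removed, of mice labelled Eftud2 cKO at postnatal day 14 (P14 cKO), Eftud2 cKO at postnatal day 10 (P10 cKO), wild type at day 14 (P14 WT) and wild type at day 10 (P10 WT) were dissociated with trypsin, and single cells were captured in droplets and sequenced as 1 library for each of these groups. Eftud2 encodes a GTPase of the spliceosome, and the series title names Purkinje cells as the deficient cells; the labels give no Cre line, deleted exon, strain or sex, and do not say how many animals were pooled. Eftud2 itself had 44.8, 55.6, 47.3 and 51.2 CPM (UMIs of a gene per 1000000 UMIs of the sum) in the whole P14 cKO, P10 cKO, P14 WT and P10 WT libraries, which checks nothing about a deletion limited to 1 cell type. The Purkinje marker Pcp2 had 0.661 to 2.76 CPM in the whole libraries, and no Purkinje cell group was formed.

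The cells kept numbered 6308, 6593, 15395 and 14280 in P14 cKO, P10 cKO, P14 WT and P10 WT, with medians of 12347, 11008, 7838 and 8490 UMIs per cell. Cells were assigned to types by counting detected markers, and granule neurons were split into newborn (Nhlh1 and Cntn2 detected), intermediate (Grin2b detected, Nhlh1 not) and mature (at least 3 of 9 mature markers, such as Gabra6) stages. P14 cKO, P10 cKO and P14 WT gave 388, 116 and 105 mature, 552, 416 and 1373 intermediate and 1142, 1697 and 4038 newborn granule neurons, 476, 515 and 345 GABAergic interneurons and 173, 120 and 749 astroglia. P10 WT gave 5 mature granule neurons. It also held few UMIs of genes with long introns: in newborn granule neurons the median log2 ratio of P10 cKO over P10 WT was 1.83 for genes with over 100 kb of intron and -0.62 for genes with at most 1 kb, and it was 2.63 for the 13 members with over 100 kb. Of 24 members with enough UMIs there, 13 were past 2-fold higher in P10 cKO, against 24.3% of all genes. The same medians for P14 cKO over P14 WT were 0.08 and 0.01. P10 WT was therefore left out of the comparisons, and values below are in the order P14 cKO, P10 cKO, P14 WT. Between 12 and 83 cell barcodes were shared by any 2 libraries. Xist had 0.552 CPM in P10 cKO and 891 to 1204 CPM in the other libraries, so sex differed between P10 cKO and the rest.

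**Figure D1:**
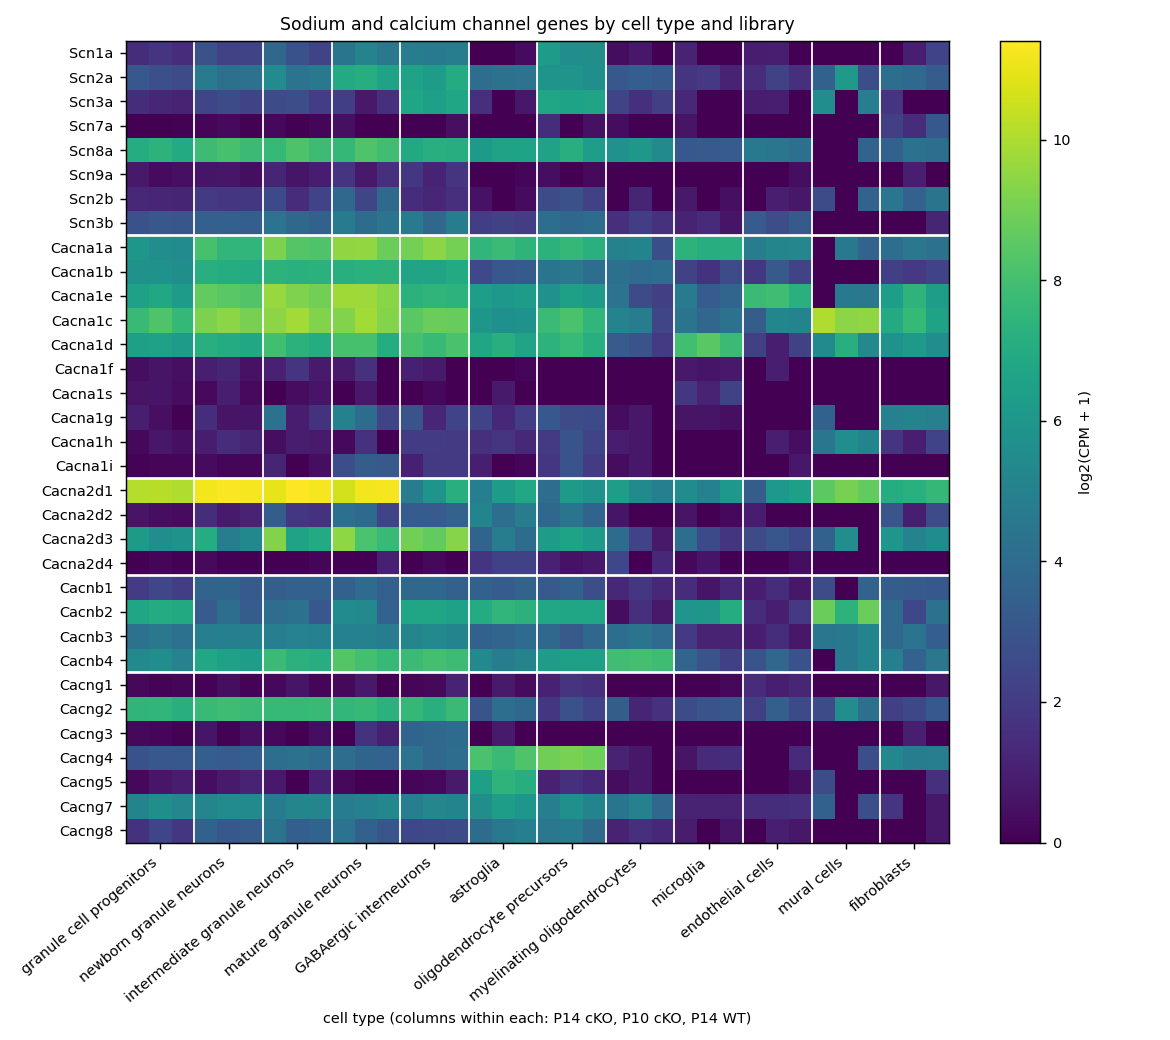
Level of 33 members, as log2(CPM + 1), in rows grouped by family, against cell type in columns, with P14 cKO, P10 cKO and P14 WT side by side within each cell type. The brightest squares of Cacna2d1 are in the granule lineage, those of Cacng4 in astroglia and oligodendrocyte precursors and those of Cacng5 in astroglia.

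Maturation of granule neurons was the first question. Of 28 members tested in mature against newborn granule neurons, 15 rose and 0 fell (edgeR quasi-likelihood test with the library as a block, Benjamini-Hochberg adjusted p under 0.05 over 14068 genes). Over all genes tested, 21.3% were called, 11.8% higher and 9.48% lower. The median log2 fold change was 0.92 over the tested members and -0.02 over all tested genes. The median UMI count per cell was close in both stages, at 12358, 10923 and 8154 in mature and 12502, 10125 and 7504 in newborn cells. The 3 libraries differ in genotype and age, so these p-values measure how alike the stage difference was across them and not spread between replicate animals.

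Sodium channel beta subunits modulate the gating of the pore and take part in cell adhesion. Scn2b had 13.5, 4.22 and 14.2 CPM in mature and 2.87, 2.47 and 2.61 CPM in newborn cells, 2.0 ± 0.33 (log2, SE; edgeR adjusted p = 0.000297). The mature values of Scn2b came from 68, 6 and 14 UMIs. Scn3b, at 26.1, 15.5 and 19.3 CPM in mature and 10.4, 10.8 and 9.63 CPM in newborn cells, rose less, 1.05 ± 0.20 (log2, SE; edgeR adjusted p = 0.000783); that call was lost without P14 cKO.

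Among the sodium channel pores, Scn2a rose most clearly. It encodes Nav1.2, the main axonal sodium channel of immature excitatory neurons. Its level was 126, 139 and 94.5 CPM in mature and 24.4, 17.6 and 18 CPM in newborn granule neurons, with no overlap, and its log2 fold change was 2.59 ± 0.13 (log2, SE; edgeR adjusted p = 2.83e-10). Scn1a, which encodes Nav1.1, had 20.9, 33.8 and 22.4 CPM in mature and 6.22, 3.6 and 4.11 CPM in newborn cells, 2.42 ± 0.26 (log2, SE; edgeR adjusted p = 3.16e-06). Scn8a encodes Nav1.6, the main channel of the mature axon initial segment. It had 194, 308 and 241 CPM in mature and 226, 275 and 217 CPM in newborn cells, and with 0.04 ± 0.10 (log2, SE; edgeR adjusted p = 0.842) it did not pass the test. Scn3a, the pore best known from embryonic neurons, had 3.38, 0.704 and 2.03 CPM in mature and 4.17, 5.32 and 4.08 CPM in newborn cells, -0.81 ± 0.42 (log2, SE; edgeR adjusted p = 0.204), and did not pass either.

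Of the T-type calcium channel pores, Cacna1i and Cacna1g rose. Cacna1i had 5.57, 9.15 and 8.13 CPM in mature and 0.273, 0.161 and 0.123 CPM in newborn granule neurons, 5.33 ± 0.56 (log2, SE; edgeR adjusted p = 2.51e-06), from 28, 13 and 8 UMIs in mature and 4, 3 and 4 in newborn cells. When each cell was thinned to 2000 UMIs, the filter on low counts left Cacna1i out, so it was not tested there. Cacna1g had 31.1, 15.5 and 4.07 CPM in mature and 1.84, 0.538 and 0.552 CPM in newborn cells, 4.09 ± 0.34 (log2, SE; edgeR adjusted p = 1.45e-07), with P14 WT at 4 UMIs in mature cells. Intermediate cells had 1.25, 0 and 0.338 CPM of Cacna1i and 19, 0.877 and 2.14 CPM of Cacna1g. In P14 cKO and P14 WT both were above their newborn level there, and in P10 cKO only Cacna1g was. The Cacna1i values came from 7, 0 and 3 UMIs, and the P10 cKO value of Cacna1g from 3. The third T-type pore, Cacna1h, had 1, 3 and 0 UMIs in mature cells and 12, 32 and 41 in newborn cells and did not pass.

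Of the high-voltage pores, Cacna1a, Cacna1e, Cacna1d and Cacna1c rose. Cacna1a encodes Cav2.1, the P/Q-type channel that triggers transmitter release at many cerebellar synapses. It had 741, 761 and 461 CPM in mature and 271, 182 and 179 CPM in newborn cells, 1.64 ± 0.12 (log2, SE; edgeR adjusted p = 2.16e-08). Cacna1e, the R-type pore, had 878, 865 and 669 CPM in mature and 402, 360.4 and 316 CPM in newborn cells, 1.17 ± 0.08 (log2, SE; edgeR adjusted p = 2.61e-08). Cacna1b, the N-type pore, which also serves transmitter release, had 145, 154 and 162 CPM in mature and 144, 132 and 129.6 CPM in newborn cells and did not pass, 0.19 ± 0.09 (log2, SE; edgeR adjusted p = 0.194). The L-type pore Cacna1d rose by a smaller amount, 0.79 ± 0.12 (log2, SE; edgeR adjusted p = 0.000147), and the L-type pore Cacna1c had 0.26 ± 0.09 (log2, SE; edgeR adjusted p = 0.0409), a call lost in 7 of the 11 alternatives: without P10 cKO, without P14 WT, with P10 WT added, in DESeq2, without the library block, with the stricter gate and with thinned cells.

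Auxiliary calcium channel subunits did not move together. Cacna2d3 had 699, 288 and 202 CPM in mature and 131, 27.7 and 38.8 CPM in newborn cells, 2.72 ± 0.15 (log2, SE; edgeR adjusted p = 1.06e-09), and Cacna2d2 had 16.9, 14.1 and 4.07 CPM in mature and 1.78, 0.753 and 1.14 CPM in newborn cells, 3.26 ± 0.39 (log2, SE; edgeR adjusted p = 1.03e-05). Cacna2d1, the binding target of gabapentin, had 1561, 2338 and 2416 CPM in mature and 2372, 2563 and 2455 CPM in newborn cells, -0.24 ± 0.10 (log2, SE; edgeR adjusted p = 0.102), and did not pass. Of the beta subunits, Cacnb4 rose, 1.44 ± 0.09 (log2, SE; edgeR adjusted p = 6.89e-09); its loss causes the ataxia of lethargic mice. Cacnb2 also rose, 1.65 ± 0.24 (log2, SE; edgeR adjusted p = 9.35e-05), whereas Cacnb1 and Cacnb3 did not pass. Of the 4 TARP genes tested, Cacng2, Cacng4, Cacng7 and Cacng8, 0 passed, with log2 fold changes of -0.24, 0.55, -0.35 and 0.57. Scn9a and Cacna1f, both at most 2.39 CPM in newborn and mature cells, were tested as well.

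**Figure D2:**
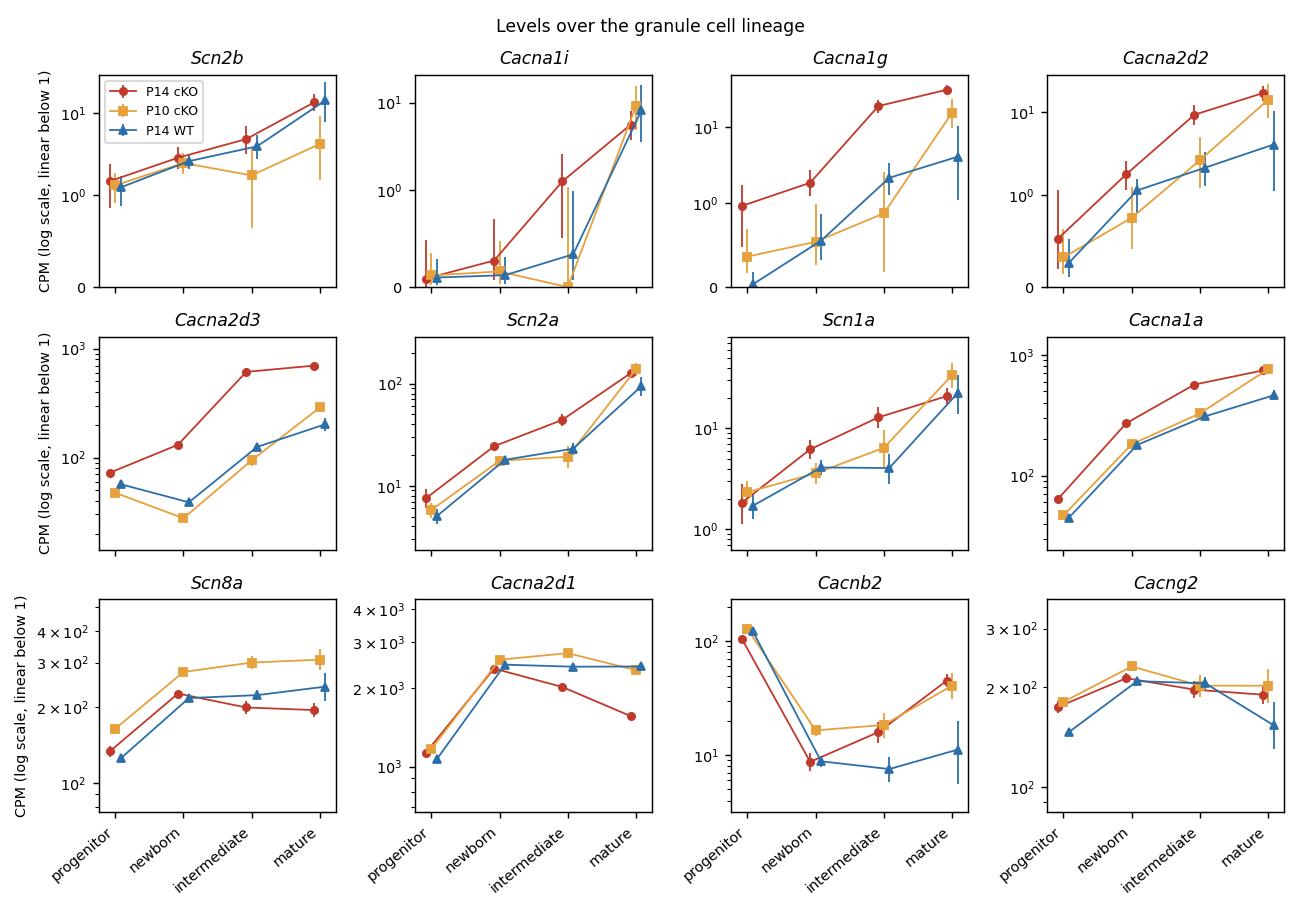
Level in CPM, on a log scale that is linear below 1, over the 4 stages of the granule lineage from progenitor to mature, for 12 members, with 1 line per library and 95% counting intervals as bars. Scn2a is highest at the mature stage in all 3 libraries, Cacnb2 is lower at the newborn than at the progenitor stage, and Cacna2d3 is highest in P14 cKO at every stage.

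The sequences around the start sites of the members that rose at least 4-fold at the mature stage are shown because these genes were called in the same direction and differ in base composition. RefSeq windows on GRCm38.p6, from 250 bases before to 50 bases after a start site, were found for 25 of 34 members, and the 6 shown are those of the genes concerned; Cacna1g had no entry. Where several start sites are listed the first is given, and the UMI counts do not say which start was used. Capitals mark GC boxes, GGGCGG on either strand, found with overlaps allowed.
Cacna1i (chr15:80286988-80287287, plus strand): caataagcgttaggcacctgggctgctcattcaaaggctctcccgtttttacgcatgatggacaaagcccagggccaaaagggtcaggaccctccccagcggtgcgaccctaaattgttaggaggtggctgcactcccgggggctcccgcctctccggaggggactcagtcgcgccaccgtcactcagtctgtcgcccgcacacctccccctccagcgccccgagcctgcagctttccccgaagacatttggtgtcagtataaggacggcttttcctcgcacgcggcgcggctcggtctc
Cacna2d2 (chr9:107399630-107399929, plus strand): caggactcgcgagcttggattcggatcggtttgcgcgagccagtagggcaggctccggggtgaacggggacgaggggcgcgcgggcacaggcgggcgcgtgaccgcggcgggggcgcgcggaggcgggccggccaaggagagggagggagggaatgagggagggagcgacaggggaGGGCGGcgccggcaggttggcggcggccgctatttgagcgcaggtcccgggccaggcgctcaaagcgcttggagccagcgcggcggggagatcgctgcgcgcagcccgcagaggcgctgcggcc
Cacna2d3 (chr14:29721815-29722114, minus strand): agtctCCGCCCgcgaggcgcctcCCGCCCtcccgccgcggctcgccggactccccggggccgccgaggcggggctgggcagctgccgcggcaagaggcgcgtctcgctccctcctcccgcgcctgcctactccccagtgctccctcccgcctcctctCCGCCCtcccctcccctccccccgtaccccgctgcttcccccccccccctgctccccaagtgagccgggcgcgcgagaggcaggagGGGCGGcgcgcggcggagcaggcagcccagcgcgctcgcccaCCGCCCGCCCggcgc
Scn2a (chr2:65620519-65620818, plus strand): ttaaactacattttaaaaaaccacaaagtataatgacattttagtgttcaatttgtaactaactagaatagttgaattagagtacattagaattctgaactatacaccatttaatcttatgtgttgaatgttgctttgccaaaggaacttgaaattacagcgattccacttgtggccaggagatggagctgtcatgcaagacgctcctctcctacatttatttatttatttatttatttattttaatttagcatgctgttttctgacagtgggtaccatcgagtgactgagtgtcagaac
Scn1a (chr2:66440788-66441087, minus strand): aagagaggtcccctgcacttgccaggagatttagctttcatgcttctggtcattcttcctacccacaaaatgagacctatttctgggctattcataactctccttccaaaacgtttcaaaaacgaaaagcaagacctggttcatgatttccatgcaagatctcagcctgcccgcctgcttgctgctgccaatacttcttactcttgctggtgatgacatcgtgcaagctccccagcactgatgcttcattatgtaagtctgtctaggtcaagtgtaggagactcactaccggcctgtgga
Scn2b (chr9:45117626-45117925, plus strand): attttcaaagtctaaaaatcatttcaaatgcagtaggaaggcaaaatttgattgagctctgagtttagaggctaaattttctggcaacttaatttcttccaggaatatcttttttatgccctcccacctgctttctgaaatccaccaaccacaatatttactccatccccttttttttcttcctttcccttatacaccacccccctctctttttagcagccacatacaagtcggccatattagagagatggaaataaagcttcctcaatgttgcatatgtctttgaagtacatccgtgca
Scn2a had 2 windows listed and each of the others 1. The share of G and C was 33.0% in the Scn2a window, 38.3% in that of Scn2b, 47.3% in that of Scn1a, 62.7% in that of Cacna1i, 75.7% in that of Cacna2d2 and 81.3% in that of Cacna2d3, and the median over all windows was 52.7%. The Cacna2d3 window held 6 GC boxes, the Cacna2d2 window held 1 and the other windows 0. Over all 32851 windows 35.7% held a GC box, and 52% of the 25 member windows did. The cyclic AMP response element TGACGTCA was in 1.79% of all windows, the RE1 left part TTCAGCACC in 0.371%, an MEF2-like site in 0.164% and the full palindromic NFI site in 0.0365%, searched on either strand, and 0 of the 25 member windows held any of them.

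The step from progenitors (cycling or Atoh1 positive cells of the lineage) to newborn granule neurons was broader. Of 28 members tested, 22 rose and 1 fell, while over all 15735 genes 68.3% were called, 33.2% higher and 35.1% lower. The member median was 1.08 against 0.00 over all tested genes. Cacna1a had 271, 182 and 179 CPM in newborn cells and 64.1, 46.9 and 44.9 CPM in progenitors, 2.04 ± 0.05 (log2, SE; edgeR adjusted p = 2.44e-13). Cacna1e was similar in size, 1.96 ± 0.07 (log2, SE; edgeR adjusted p = 4.79e-12), as were Scn3a, 1.76 ± 0.21 (log2, SE; edgeR adjusted p = 3.86e-06), and Scn2a, 1.74 ± 0.10 (log2, SE; edgeR adjusted p = 1.1e-09). Cacna2d1, with 2372, 2563 and 2455 CPM in newborn cells, already had 1129.8, 1166 and 1066 CPM in progenitors, 1.16 ± 0.06 (log2, SE; edgeR adjusted p = 7.39e-10). Scn8a had 226, 275 and 217 CPM in newborn cells and 133, 164 and 125 CPM in progenitors, 0.80 ± 0.05 (log2, SE; edgeR adjusted p = 4.09e-09).

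Cacnb2 was the member that fell. Newborn granule neurons had 8.75, 16.5 and 8.84 CPM and progenitors had 105, 128 and 122 CPM, with no overlap, -3.39 ± 0.12 (log2, SE; edgeR adjusted p = 5.93e-12). It is a beta subunit best known from heart L-type channels, and its level later turned up again in mature cells of the cKO libraries, at 45.0 and 40.8 CPM, against 11.2 CPM in P14 WT. Cacna2d3, Cacng5, Cacng7, Cacna1s and Scn9a did not pass. With cells thinned to 2000 UMIs 20 members were tested and 15 were called. Of the 8 calls lost, Cacng4, Scn1a and Scn3b were tested and did not pass. The filter on low counts left out Cacna1f, Cacna1g, Cacna1h, Cacna2d2 and Scn2b, which were not tested there. The call of Cacna1g was also lost without P14 WT, and that of Cacna1f without P10 cKO and without P14 cKO.

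GABAergic interneurons, the inhibitory cells of the cerebellum, were compared with granule neurons of all 3 stages together. Of 30 members tested, 14 were higher and 9 lower in interneurons, with 38% of 15348 genes called, 18.6% higher and 19.4% lower. The member median was 0.34 and that of all genes -0.01. Most interneurons here were Pax2 positive, a mark of immature interneurons: 453 of 476, 499 of 515 and 312 of 345 cells. Pax2 is itself among the 8 markers of the interneuron gate, of which 4 were needed. The gate thus favoured Pax2 positive cells, and this share does not measure how many interneurons were immature. With P10 cKO left out 12 members were called, 7 higher and 5 lower, and with P14 WT left out 14, 6 higher and 8 lower, so the larger share then lay on the lower side; the calls of Cacna1a, Cacna1h, Cacna2d2, Cacna2d3, Cacnb4, Cacng4, Cacng7 and Scn9a were lost in both of these fits. The call of Scn2b was lost without P10 cKO and without P14 cKO, that of Cacna1b without P10 cKO and that of Scn3b without P14 WT.

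The sodium channel pores differed in direction between them. Scn3a had 106, 86.5 and 104 CPM in interneurons and 4.24, 5.08 and 3.86 CPM in granule neurons, 4.41 ± 0.14 (log2, SE; edgeR adjusted p = 3.37e-06). Scn1a, whose loss in inhibitory neurons causes seizures in mice, had 26.5, 25.1 and 26.6 CPM in interneurons and 10.6, 5.85 and 4.52 CPM in granule neurons, 1.87 ± 0.24 (log2, SE; edgeR adjusted p = 0.00108), and Scn2a had 95.4, 77.4 and 130.2 CPM in interneurons and 49.1, 25.2 and 20.8 CPM in granule neurons, 1.64 ± 0.28 (log2, SE; edgeR adjusted p = 0.00414). Mature cells, the fewest of the granule stages in each library, had 126, 139 and 94.5 CPM of Scn2a and 20.9, 33.8 and 22.4 CPM of Scn1a. These mature values were above the interneuron values in P14 cKO and P10 cKO for Scn2a, and in P10 cKO for Scn1a. Interneurons were not tested against mature cells alone. Scn8a was lower in interneurons, at 121, 144 and 136 CPM against 214, 281 and 219 CPM, -0.91 ± 0.08 (log2, SE; edgeR adjusted p = 0.000196). Scn9a was low in both, at most 2.64 CPM. The beta subunit Scn2b had 1.81, 1.34 and 1.98 CPM in interneurons and 5.43, 2.47 and 3.16 CPM in granule neurons, -1.22 ± 0.33 (log2, SE; edgeR adjusted p = 0.0257).

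Calcium channel subunits split the same cells. The alpha2-delta genes ran in opposite directions: Cacna2d1 had 26.5, 58.5 and 142 CPM in interneurons and 2132, 2572 and 2445 CPM in granule neurons, -5.36 ± 0.41 (log2, SE; edgeR adjusted p = 0.000105), whereas Cacna2d3 had 509, 410.1 and 644 CPM in interneurons and 351, 53.2 and 60.7 CPM in granule neurons, 2.25 ± 0.54 (log2, SE; edgeR adjusted p = 0.0161). For Cacna2d1 the interneuron values stood in the same order over the 3 libraries as those of endothelial cells, 9.42, 65.8 and 85.3 CPM; the part of free granule neuron RNA in these values was not tested. Cacnb2 was higher in interneurons, at 107, 107 and 91.3 CPM against 17.5, 18.3 and 8.62 CPM, 2.75 ± 0.17 (log2, SE; edgeR adjusted p = 3.5e-05). Cacna1a, at 515, 693 and 515 CPM in interneurons and 430.0, 238 and 213 CPM in granule neurons, was higher with 0.94 ± 0.23 (log2, SE; edgeR adjusted p = 0.0181), and Cacna1d was higher with 0.69 ± 0.15 (log2, SE; edgeR adjusted p = 0.0103). Cacna1e, -1.50 ± 0.15 (log2, SE; edgeR adjusted p = 0.000314), and Cacna1c, -0.68 ± 0.10 (log2, SE; edgeR adjusted p = 0.00217), were lower. Mature granule neurons alone had 699, 288 and 202 CPM of Cacna2d3 and 741, 761 and 461 CPM of Cacna1a. These were above the interneuron values in P14 cKO for both genes, and in P10 cKO for Cacna1a. Cacna1d had 269, 272 and 134 CPM in mature cells and 271, 214 and 281 CPM in interneurons. Interneurons were not tested against mature cells alone.

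The TARP genes differed among themselves. Cacng3 had 11.7, 13.4 and 15.1 CPM in interneurons and 0.356, 0.171 and 0.4 CPM in granule neurons, where it had 9, 4 and 17 UMIs, 5.31 ± 0.32 (log2, SE; edgeR adjusted p = 3.7e-05). Cacng2 had 194, 148 and 207 CPM in interneurons and 205, 225 and 206 CPM in granule neurons and did not pass, -0.31 ± 0.12 (log2, SE; edgeR adjusted p = 0.0796). Cacng8 was lower in interneurons, -1.23 ± 0.23 (log2, SE; edgeR adjusted p = 0.00665). Pax2 negative interneurons, told apart only by the lack of a Pax2 UMI, were few, with 23, 16 and 33 cells. They had to show at least 4 of the other gate markers. The summed level of 8 cycling markers was 963, 559 and 32.8 CPM in them and 175, 258 and 76.6 CPM in Pax2 positive cells. Whether the Pax2 negative cells were more mature was not tested. Against Pax2 positive interneurons, 0 of 21 members passed in edgeR and 0 in DESeq2, 2 had an unadjusted p under 0.05, and 0.28% of 10369 genes were called. The lowest p was that of Cacng2, with 377, 201 and 339 CPM in Pax2 negative and 185, 147 and 196 CPM in Pax2 positive cells, 0.80 ± 0.17 (log2, SE; edgeR adjusted p = 0.0775). Without P14 WT 3 members were called, Cacng2 higher and Cacna1b and Cacna1c lower.

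**Figure D3:**
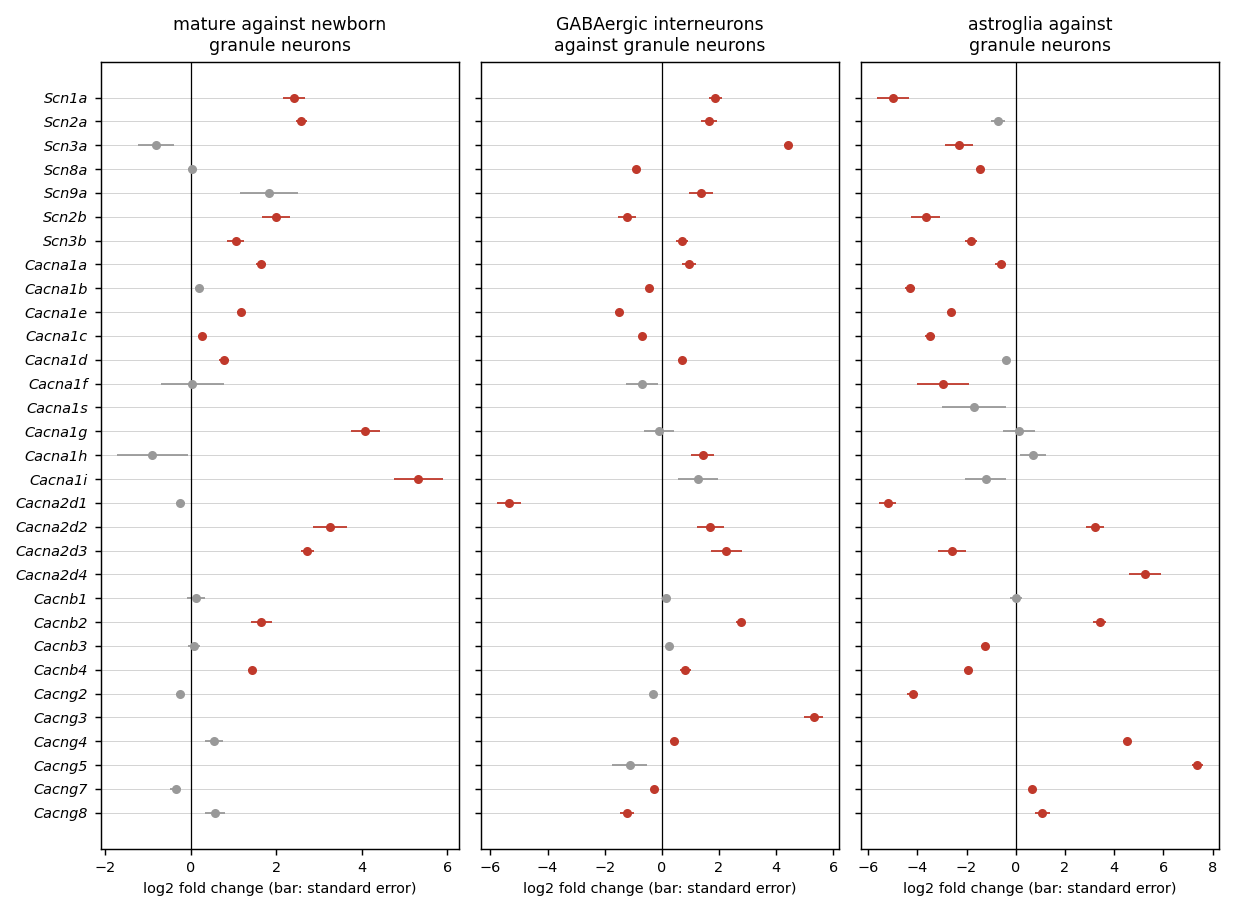
Log2 fold change with its standard error for 31 tested members (rows) in mature against newborn granule neurons, GABAergic interneurons against granule neurons, and astroglia against granule neurons; red points have an adjusted p under 0.05 and grey points do not. Cacna1i and Cacna1g stand far right on the left panel, Scn3a and Cacng3 stand far right among interneurons, and Cacng5 and Cacng4 among astroglia.

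Astroglia, which include the Bergmann glia that ensheath Purkinje cell synapses, were set against granule neurons as well. Of 30 members tested, 8 were higher and 15 lower, with 62.7% of 16308 genes called, 30.2% higher and 32.5% lower. The TARP genes Cacng5 and Cacng4 were among the 3 with the largest rise, with Cacna2d4. Cacng5, known from Bergmann glia, had 88.1, 168 and 135 CPM in these cells, against 0.396, 0.597 and 1.15 CPM in granule neurons, 7.38 ± 0.24 (log2, SE; edgeR adjusted p = 1.97e-07). Its neighbour on chromosome 11, Cacng4, had 283, 210.2 and 306 CPM in astroglia, against 12.4, 10.4 and 11 CPM in granule neurons, 4.50 ± 0.16 (log2, SE; edgeR adjusted p = 3.36e-07). Cacng2 went the other way, with 6.71, 16.6 and 13 CPM, against 205, 225 and 206 CPM in granule neurons, -4.20 ± 0.21 (log2, SE; edgeR adjusted p = 1.36e-06).

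Of the other members, Cacnb2 had 127, 178 and 159 CPM in astroglia, 3.40 ± 0.26 (log2, SE; edgeR adjusted p = 1.47e-05), and Cacna2d2 had 34.5, 16.6 and 26.6 CPM, 3.23 ± 0.37 (log2, SE; edgeR adjusted p = 0.000136). Cacna2d4 was higher too, 5.24 ± 0.66 (log2, SE; edgeR adjusted p = 0.00024), from 3, 1 and 3 UMIs in granule neurons. Cacng7 and Cacng8 were also higher. Neuronal pores were low: Scn1a was lower than in granule neurons with -5.00 ± 0.63 (log2, SE; edgeR adjusted p = 0.00025), Cacna1b with -4.32 ± 0.20 (log2, SE; edgeR adjusted p = 8.86e-07) and Cacna1c with -3.49 ± 0.19 (log2, SE; edgeR adjusted p = 1.93e-06). Cacna1a, at 181, 218 and 172 CPM in astroglia, differed least among the lower calls, -0.62 ± 0.21 (log2, SE; edgeR adjusted p = 0.0339). Without P14 WT, Cacna1f, Cacng8 and Scn3a were tested and did not pass, and the filter on low counts left out Cacna2d4. Without P14 cKO the call of Cacna1a was lost. The filter also left out Cacna1f without P14 cKO and without P10 cKO, so it was not tested there.

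Other cell types, which have no test here, carried a few members at high levels. Oligodendrocyte precursors, which are known to receive synapses and to have sodium currents, had 485, 560.1 and 474 CPM of Cacng4, 102, 97 and 102 CPM of Scn3a and 75.5, 46.8 and 48.6 CPM of Scn1a. Myelinating oligodendrocytes had 4.04, 1.95 and 3.54 CPM of Scn3a, from cells with medians of 1291, 3766 and 5880 UMIs, yet 243, 258 and 231 CPM of Cacnb4, against 76.9, 89.4 and 86.6 CPM in the precursors. Cells passing both oligodendrocyte gates lay between for Scn3a, at 16, 12 and 19.9 CPM.

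Microglia, the resident macrophages, had 246, 358 and 219 CPM of the L-type pore Cacna1d and 167, 136 and 140.4 CPM of Cacna1a. Border macrophages had 83.6, 74.9 and 97.5 CPM of Cacna1d and 22.7, 36.3 and 54.6 CPM of Cacna1a, below the microglia of the same library for each gene. Cacna1s, the skeletal muscle pore, had 2.64, 1.1 and 3.68 CPM in microglia. Brain endothelial cells had 218, 236 and 151 CPM of Cacna1e. Beside these Cacna1e values, which came from 255, 258 and 453 UMIs, endothelial cells had 11, 72 and 256 UMIs of Cacna2d1. Granule neurons had 14770, 9919 and 15452 UMIs of Cacna1e beside 53833, 60280 and 103785 of Cacna2d1. The part of free granule neuron RNA in the endothelial values was not tested.

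Mural cells, the pericytes and smooth muscle cells of vessels, had 1058, 677 and 731 CPM of Cacna1c and 457, 164 and 449 CPM of Cacnb2, the subunits of the vascular L-type channel, from 20, 7 and 30 cells. Fibroblasts had 30.4, 34.9 and 30.6 CPM of Cacna1g and 21, 11 and 20.2 CPM of Scn2b. Scn7a, which encodes a sodium channel that responds to sodium level rather than voltage, had 3, 2 and 12 UMIs there. Cacng1, the skeletal muscle gamma subunit, was at most 2.39 CPM in oligodendrocyte precursors and at most 0.384 CPM in granule neurons.

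**Figure D4:**
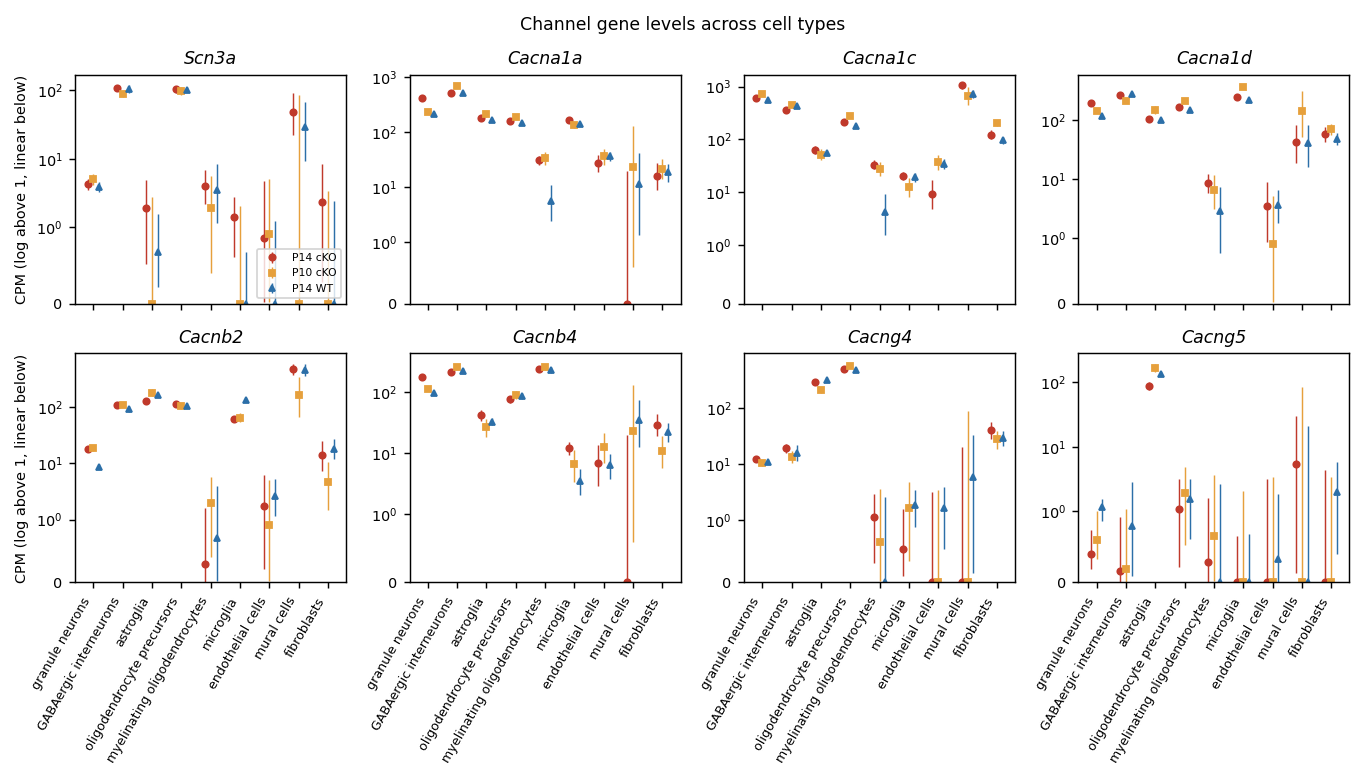
Level in CPM, on a log scale that is linear below 1, of 8 members in granule neurons and 8 other cell types, with 1 point per library and 95% counting intervals as bars. Scn3a is high in interneurons and oligodendrocyte precursors, Cacng5 in astroglia, and Cacnb4 in myelinating oligodendrocytes as well as neurons.

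The genotypes could be compared at P14 only as 1 library against 1, with no test; a member counts here when it had at least 20 UMIs over both sums and its CPM differed at least 2-fold. In granule neurons of all stages, 10 of 30 members were higher and 1 lower in P14 cKO than in P14 WT, against 7.73% higher and 1.44% lower of 15935 genes. The stage mix differed as well, with mature cells making 388 of 2082 granule neurons in P14 cKO and 105 of 5516 in P14 WT. With the 3 stages weighted alike in both libraries 6 members passed, and the ratio of Cacna1i turned to the other sign, at -0.29. Among the 10 higher were Cacna1g, Cacna2d3, Cacna2d2, Cacna1i, Scn2a, Scn1a, Scn9a, Cacnb2 and Cacna1a, and the lower one was Cacng5. With the stages weighted alike the log2 ratios of Scn2a, Scn1a and Cacna1a were 0.52, 0.38 and 0.73, all under 2-fold.

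Cacna2d3 differed past 2-fold within each stage as gated, although not in mature cells with the stricter gate. P14 cKO had 131, 612 and 699 CPM in newborn, intermediate and mature granule neurons, and P14 WT had 38.8, 125 and 202 CPM. The log2 ratios were 1.76 (1.65 to 1.86), 2.29 (2.19 to 2.39) and 1.79 (1.58 to 2.0) (95% counting intervals). P10 cKO had 27.7, 94.4 and 288 CPM, so P14 cKO was also above the younger cKO library at each stage. Cacna1g, with 19, 0.877 and 2.14 CPM in intermediate and 31.1, 15.5 and 4.07 CPM in mature cells, had log2 ratios over P14 WT of 3.12 (2.43 to 3.93) and 2.77 (1.55 to 4.83). Cacna2d2 had 2.09 (1.34 to 2.96) and 1.90 (0.65 to 3.97), and Cacnb2 1.07 (0.60 to 1.56) and 1.95 (1.14 to 3.03), at the same stages.

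Cells of 1 stage were not equally far along in both libraries. The summed level of the 9 mature markers was 1594 CPM in P14 cKO and 524 CPM in P14 WT in intermediate cells, and 3274 and 2095 CPM in mature cells, and its part in these ratios was not tested. With 1 marker more required in each gate, the Cacna2d3 ratio in mature cells was 0.50, that of Cacnb2 0.65 and that of Cacna2d2 -0.00299, from 148 cells in P14 cKO and 13 in P14 WT. In mature granule neurons as gated, 5 of 24 members were higher and 0 lower in P14 cKO, against 6.51% and 3.27% of 11390 genes; the fifth was Cacng8, 1.36 (0.36 to 2.81). With the stricter gate 3 were higher and 5 lower, so the balance of directions turned. In intermediate cells 5 of 23 were higher, Cacna1g, Cacna2d3, Cacna2d2, Scn1a and Cacnb2, and 0 lower, against 5.13% and 3.73% of 12739 genes. In newborn cells 3 of 27 were higher, Cacna2d3, Cacna1g and Cacna1f, and 1 lower, Cacng5, against 4.54% and 1.16% of 15076 genes. Cacna1f had 14 UMIs in P14 cKO and 15 in P14 WT there, 1.06 (-0.11 to 2.21), an interval that covers both directions. Scn8a was within 2-fold at each stage, with log2 ratios of 0.06 (-0.00064 to 0.12), -0.16 (-0.27 to -0.06) and -0.31 (-0.52 to -0.10).

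**Figure D5:**
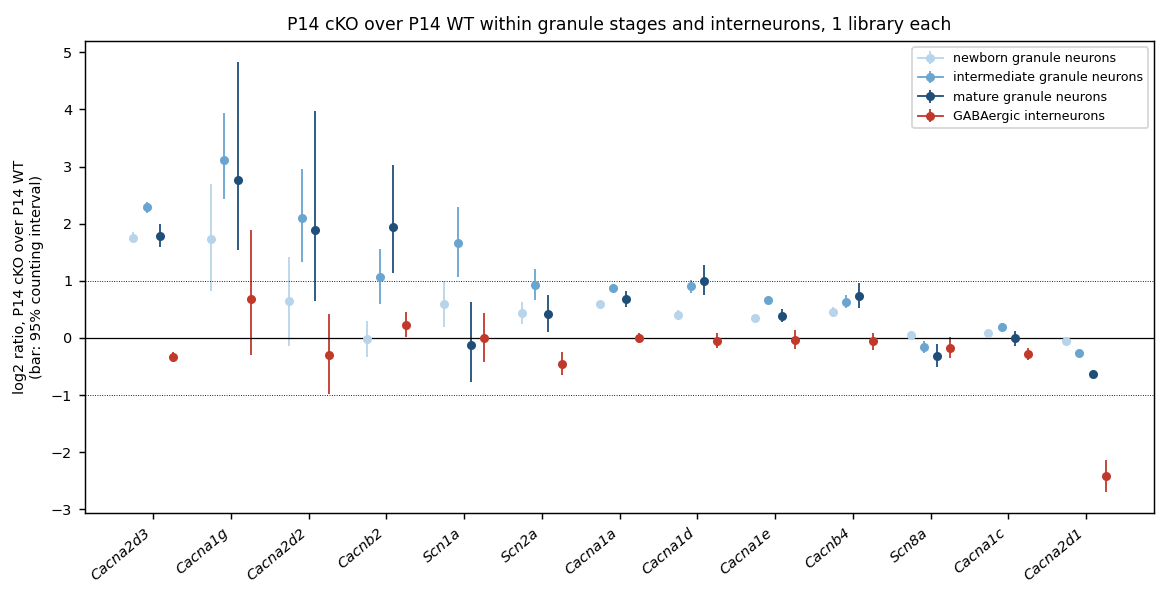
Log2 ratio of P14 cKO over P14 WT for 13 members in newborn, intermediate and mature granule neurons and in GABAergic interneurons, with 95% counting intervals as bars and dotted lines at 2-fold. Cacna2d3 is above 2-fold at all 3 granule stages and below 0 in interneurons, and Cacna2d1 in interneurons is the lowest point.

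In GABAergic interneurons, 0 of 25 members were higher and 1 lower in P14 cKO than in P14 WT, against 3.77% and 0.925% of 12321 genes. The 1 was Cacna2d1, with 26.5 CPM in P14 cKO and 142 CPM in P14 WT, -2.41 (-2.69 to -2.14). It was also the 1 member past 2-fold among 23 in astroglia, with 29.2 and 115 CPM, -1.96 (-2.37 to -1.60), against 7.35% of 13075 genes past 2-fold in either direction. Endothelial cells were lower too, at 9.42 CPM in P14 cKO and 85.3 CPM in P14 WT, and so were oligodendrocyte precursors, at 15.7 and 54.9 CPM. Granule neurons, where the gene is highest, held 2132 CPM in P14 cKO and 2445 CPM in P14 WT, and granule lineage cells made 2738 of 6308 cells in P14 cKO and 8351 of 15395 in P14 WT. Whether free granule neuron RNA set these values was not tested. Cacna2d3, in contrast to granule neurons, had 509 CPM in P14 cKO interneurons and 644 CPM in P14 WT interneurons, -0.34 (-0.43 to -0.25).

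Within the cKO libraries, P14 and P10 granule neurons of all stages differed past 2-fold in 8 of 30 members, 6 higher and 2 lower at P14, against 7.53% and 3.31% of 15460 genes. The stage mix differed here too, with 388 of 2082 cells mature at P14 and 116 of 2229 at P10. Cacna2d3 had 351 CPM at P14 and 53.2 CPM at P10, 2.72 (2.63 to 2.81), and Cacna1g 11.4 and 1.49 CPM, 2.92 (2.43 to 3.49). Cacna2d2, Cacna1i and Scn2b were also higher at P14, and Cacna1s and Cacna1h, with at most 38 UMIs in either sum, were lower. With the stages weighted alike the ratio of Cacna2d3 was 1.81, that of Cacna1g 1.61 and that of Cacna2d2 0.67, while Cacna1i turned to -0.40. In interneurons 4 of 26 members passed, against 3.58% higher and 1.63% lower of 12862 genes: Cacna1g, 2.21 (1.12 to 3.70), and Scn9a were higher at P14, and Cacna2d1, -1.14 (-1.43 to -0.86), and Cacna1i were lower. Scn9a had 16 UMIs at P14 and 6 at P10, 1.13 (-0.23 to 2.84), an interval that covers both directions. Cacna1i had 6 UMIs at P14 and 15 at P10, -1.47 (-3.19 to -0.09). Sex differed between these libraries too, as the Xist levels show.

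Genes that work with these channels were described in 4 lists. Their counts in mature against newborn cells stand beside 21.3% of all genes called, 11.8% higher and 9.48% lower. Of 10 sodium channel partners, which anchor or modulate the channels, 5 rose and 1 fell in mature against newborn granule neurons: Fgf14, an intracellular regulator of sodium channels whose loss causes ataxia, rose with 3.79 ± 0.18 (log2, SE; edgeR adjusted p = 1.86e-10), Fgf12 with 1.28 ± 0.11 (log2, SE; edgeR adjusted p = 1.56e-07) and the axonal spectrin Sptbn4 with 0.87 ± 0.12 (log2, SE; edgeR adjusted p = 5.15e-05), while Ank3, the anchor of the axon initial segment, fell with -0.40 ± 0.10 (log2, SE; edgeR adjusted p = 0.00703). Of 16 listed calcium channel partners 11 were tested, of which 8 rose, led by the synaptic vesicle calcium sensor Syt2, 2.54 ± 0.14 (log2, SE; edgeR adjusted p = 8.66e-10), and 1 fell, Rem2, an inhibitor of calcium channels, -1.46 ± 0.30 (log2, SE; edgeR adjusted p = 0.00174). Of the 4 genes of the sodium leak channel complex 3 rose, with Unc80 at 2.29 ± 0.14 (log2, SE; edgeR adjusted p = 2.92e-09) and the pore Nalcn at 1.47 ± 0.15 (log2, SE; edgeR adjusted p = 1.22e-06). Of 6 tested other AMPA receptor auxiliary genes 3 rose, led by Gsg1l, 2.41 ± 0.38 (log2, SE; edgeR adjusted p = 0.000162). Gsg1l and Unc80 were lower in newborn cells than in progenitors, at -4.71 ± 0.15 and -2.01 ± 0.08 (log2, SE). In that step 4 of 7 AMPA receptor auxiliary genes rose and 2 fell, and 1 of 4 leak channel genes rose and 1 fell. Of 10 sodium channel partners 9 rose and 1 fell, and of 13 tested calcium channel partners 9 rose and 1 fell. Over all genes 33.2% were higher and 35.1% lower.

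In interneurons against granule neurons, 3 of the 4 partner lists had calls in both directions, beside 38% of all genes called, 18.6% higher and 19.4% lower. Of 10 sodium channel partners 1 was higher, Nrcam, 0.63 ± 0.14 (log2, SE; edgeR adjusted p = 0.0111), and 5 lower, of which Fgf11 led with -1.54 ± 0.27 (log2, SE; edgeR adjusted p = 0.00483). Of 12 tested calcium channel partners 4 were higher, with Rimbp2, an active zone protein, at 5.30 ± 0.47 (log2, SE; edgeR adjusted p = 0.000204), and 3 lower, with Syt1 at -2.26 ± 0.18 (log2, SE; edgeR adjusted p = 0.000119). Of the 4 genes of the leak channel complex 0 were higher and 2 lower. Of the 7 AMPA receptor auxiliary genes 2 were higher, Shisa6 and Cnih3, and 5 lower, of which Shisa9 led with -5.11 ± 0.25 (log2, SE; edgeR adjusted p = 1.41e-05).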

How the data were processed

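Droplet-based single-cell libraries of mouse cerebellum were analysed, 1 per genotype and age. The deposited matrices hold raw UMI counts per gene and cell barcode. Per the file headers, Cell Ranger 7.1.0 wrote the P14 cKO and P14 WT matrices, version 7.0.1 that of P10 cKO and version 5.0.0 that of P10 WT. Version 3.0.2 of it, mm10 and Seurat 4.1.3 are listed in the submitters' processing notes. Whole libraries held 91091692, 92315263, 145731767 and 158017834 UMIs in P14 cKO, P10 cKO, P14 WT and P10 WT.

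Barcodes with at least 500 genes and at most 20% mitochondrial UMIs were kept. Cells were assigned by the number of detected markers, for example 5 of 8 for the granule lineage and 4 of 8 for GABAergic interneurons. These minimums were set after marker counts per cell were seen. No doublet caller was run; cells passing more than 1 gate, 8.12%, 5.79%, 6.12% and 10.5% of cells in the same order, were left out of the single types.

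UMIs were summed per library and cell type. Cell types were compared with edgeR 4.0.16 (R 4.3.3): TMM, filterByExpr with a minimum count of 10, quasi-likelihood test, the library as a block because both sums came from 1 library, and Benjamini-Hochberg adjustment over all genes. Libraries compared by genotype or age have no replicates, so the log2 ratio, with 0.5 UMI added to each sum, has a conditional binomial 95% interval that covers counting error only. DESeq2 1.42.0, other filters, gates and depths were tried as alternatives.

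Named genes were the members past a threshold, by size of change, with a fixed list of main subunits and up to 5 called genes of each partner list. Counts of members cover all 34, of which not all are reported here by name. The members and lists were chosen with earlier results of these data known.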

Additional observations from a re-analysis of the deposited data

Results flagged for a closer look

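Cacnb2 ran in opposite directions in P14 cKO against P14 WT. Its log2 ratio was 1.02 in granule neurons, 1.07 in intermediate and 1.95 in mature granule neurons, and -1.11 in microglia. With 1 library per group the difference between these cell types was not tested. The level was 60.7 CPM in P14 cKO microglia and 131 CPM in P14 WT microglia.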

How the results depend on the processing

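Between GABAergic interneurons and granule neurons 23 members were called. The count was 12 to 18 with 1 library left out and 15 without the library as a replicate block. With cells thinned to 2000 UMIs it was 14 of 23 members tested, and Cacng7 changed sign (0.0768). Without the block, mature against newborn granule neurons gave 13 calls, newborn cells against progenitors 21, astroglia 21 and Pax2 negative interneurons 0. Thinning left 15 calls among 20 members tested between newborn cells and progenitors. Pax2 negative interneurons had 1 call with no filter on low counts, with P10 WT added and with the stricter gate, and 0 to 3 with 1 library left out. Among members past 2-fold between P14 cKO and P14 WT, granule neurons gave 6 with stages weighted alike (Cacna1i -0.29), mature cells 8 with the stricter gate, 3 higher and 5 lower against 5 and 0 as gated (Cacna2d2 -0.00299), and 3 thinned, and with no minimum of UMIs interneurons gave 6 and astroglia 4. Between P14 cKO and P10 cKO, granule neurons gave 5 thinned, with Cacna1i at -0.40 when stages were weighted alike, and interneurons 1 with a minimum of 50 UMIs and 2 thinned. The cause of these changes was not tested. Over single members reported by name, 796 alternative values of the tests kept direction and call, 79 kept direction only and 1 reversed. Newborn and mature sums under 30 UMIs in all 3 libraries limit Cacna1i, Scn9a, Cacna1f and Cacna2d4, and such sums in some libraries limit Cacna1g and Cacna2d2. Mature sums under 30 UMIs also limit other members that rose. These are Scn2b, with 6 in P10 cKO and 14 in P14 WT, and Scn3b, with 22 and 19 in the same libraries. In P14 WT alone they are Cacnb2, with 11, and Scn1a, with 22.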
